A study of Mus musculus with 27 samples.

Results

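The 96 genes described here are the nuclear genes of the mitochondrial respiratory chain and ATP synthase, of 54532 genes counted. They were taken by symbol from the protein-coding genes whose names start with Ndufa, Ndufb, Ndufc, Ndufs, Ndufv, Uqcr, Cox4, Cox5, Cox6, Cox7, Cox8 or Atp5, together with Sdha, Sdhb, Sdhc, Sdhd, Cyc1 and Cycs. A further 13 genes with such symbols were left out because the annotation does not class them as protein-coding. The members divide into 36 subunit genes of complex I, 8 assembly factors of complex I (the Ndufaf genes), 4 genes of complex II, 9 of complex III, 20 of complex IV, 18 of complex V and the gene of cytochrome c. Atp5o is listed under a pair of identifiers, of which ENSMUSG00000116933 had no count in any library.

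The 27 libraries came from mouse thyroid tissue that was cut out of sections with a laser and sequenced from the 3′ ends of transcripts. NCT is normal thyroid of mice that were not exposed to radiation, NT is normal thyroid tissue of exposed mice with lesions close by, and PL is the proliferative lesions of those same exposed mice. The 9 libraries of a group came from 6 females and 3 males, and NT and PL were paired by mouse. Dose, strain and age are not in the labels, and every exposed mouse bore a lesion, so that exposure, lesion bearing and nearness to a lesion cannot be told apart.

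The respiratory chain passes electrons from NADH through complex I, or from succinate through complex II, to complex III, cytochrome c and complex IV, where oxygen is reduced. The protons pumped on the way drive complex V, the ATP synthase. Most subunits are encoded in the nucleus and are built together with a few subunits made from the mitochondrial genome. Thyroid hormone is known to raise these genes in many tissues, and brown fat, heart and skeletal muscle use their own isoforms of several complex IV subunits.

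Libraries held 2923851 to 14148601 counts, with medians of 4622595 for NCT, 7220957 for NT and 6479022 for PL. The defining thyroid marker was high in all groups: Tg, the precursor protein of thyroid hormone, lay between 9455 and 60010 CPM (counts scaled to a common library size) in the 27 libraries. In bulk tissue of this kind, fewer cells of a type and less RNA per cell cannot be told apart. Parathyroid or stomach-type transcripts (Pth or Lipf above 2000 CPM) marked NCT replicates 5, 8 and 9, NT replicates 7 and 9 and PL replicate 2, and their effect is given where it changed a result. The mouse numbers fall into 3 series by their first 4 digits, called here the low, middle and high number series. The low series holds 4 NCT libraries, 1 NT library and 1 PL library, so that the groups are unequally spread over the series.

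The respiratory chain as a whole took up more of the counts in NCT than in NT and PL on average, with wide overlap. Summed over all 96 members, the lowest, median and highest library stood at 13900, 19910 and 25260 CPM for NCT, at 13160, 14840 and 20930 for NT, and at 12550, 17130 and 19530 for PL. The mean of NCT was 19040 ± 3795, that of NT 15570 ± 2505 and that of PL 16280 ± 2802 CPM (SD, n = 9). The sum is also given by mouse number series. All 6 libraries of the low series lay between 18980 and 21330 CPM, among them NT replicate 1 at 20930 and PL replicate 1 at 19530. The middle series spanned 13640 to 18510 CPM, with its single NCT library at 15580, its 4 NT libraries at 13640 to 14950 and its 4 PL libraries at 14030 to 18510. In the high series the 4 NCT libraries spanned 13900 to 25260 CPM, the NT libraries 13160 to 18510 and the PL libraries 12550 to 19320. Whether the difference between NCT and NT depends on the series was not tested, and fits that take the series into account are given below.

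**Figure D1:**
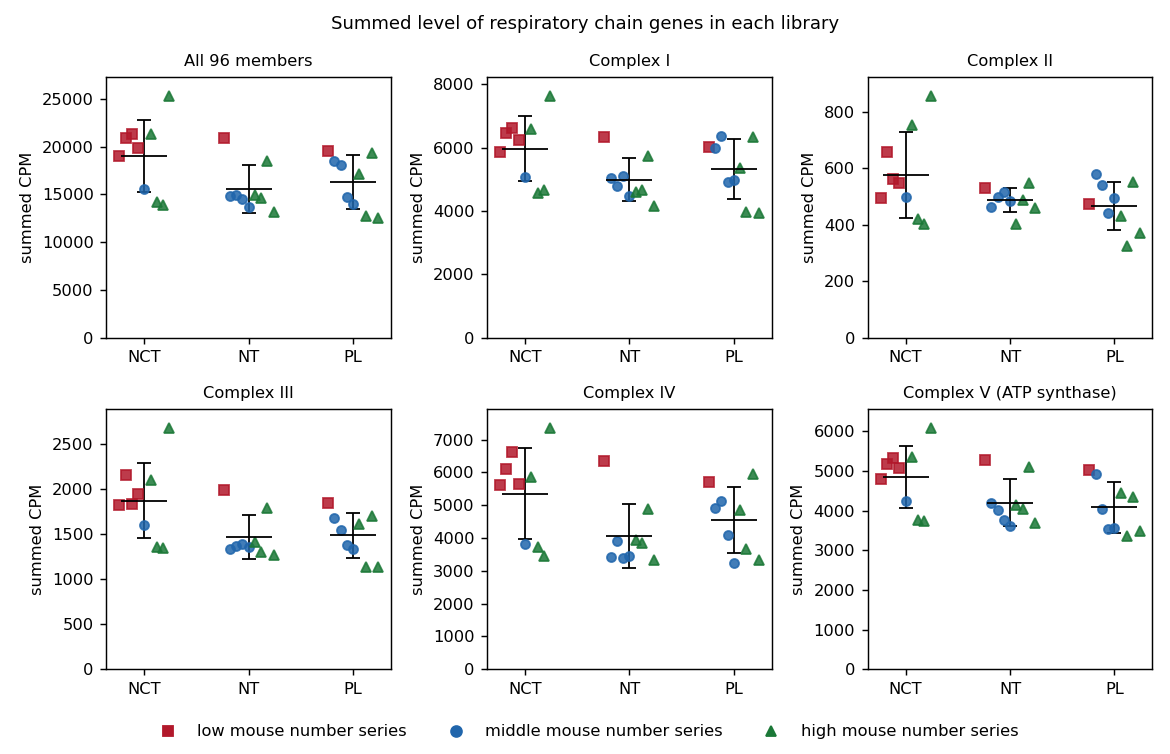
Summed CPM (vertical axes, linear from 0) of all 96 members and of complexes I to V in each of the 27 libraries, by group. Points are libraries, with shape and colour for the mouse number series; bars are the mean and SD of 9 libraries. NCT has the highest mean in every panel (19040 CPM over all members), and over all members the single NT and the single PL library of the low number series, at 20930 and 19530 CPM, are the highest of their groups.

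Every complex had its highest mean sum in NCT. Complex I summed to 5965 ± 1020 CPM for NCT, 4986 ± 675 for NT and 5321 ± 945 for PL (SD, n = 9). Complex II stood at 577 ± 151, 488 ± 42.7 and 468 ± 85.4 CPM in the same order. Complex III stood at 1869 ± 418, 1465 ± 248 and 1484 ± 253 CPM. These are shifts of about the size of the SD within a group. Complex IV stood at 5354 ± 1382, 4057 ± 982 and 4544 ± 1005 CPM. Complex V stood at 4838 ± 784, 4196 ± 593 and 4079 ± 635 CPM. The assembly factors of complex I, which are needed to build it but are not part of it, stood at 198 ± 24.9, 188 ± 18.2 and 188 ± 25.4 CPM.

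Within each complex the same genes led in nearly every group. Counts of 3′ libraries were not divided by transcript length, so that a comparison between genes is of tags. Cox6c, a small subunit of complex IV, was the member with the most tags, with a median library of 1268 CPM for NCT, 838 for NT and 1108 for PL. Atp5g3, which encodes the membrane ring of the ATP synthase, led complex V with medians of 566, 418 and 434 CPM. Uqcrh, the hinge protein of complex III, led its complex with medians of 346, 289 and 326 CPM. In complex I the leading gene was Ndufa1 in NCT (median 451 CPM) and Ndufb8 in NT and PL (medians 385 and 442 CPM). Both encode accessory subunits of the membrane arm. In complex II, Sdha, Sdhb and Sdhc had mean levels of 141 to 208 CPM over the groups, whereas Sdhd, the second membrane anchor, reached at most 13.1 CPM in any library and was not tested. Cyc1, the cytochrome c1 of complex III, had medians of 54.9, 51.3 and 54.8 CPM, and Cycs, the soluble electron carrier, 203, 193 and 211 CPM.

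Of the 96 members, 91 passed the filter on low counts in each of the 3 comparisons. The other 5 were Sdhd, Cox4i2, Cox7b2, Cox8c and the Atp5o identifier without counts. Differences between groups below are log2 fold changes from edgeR's quasi-likelihood test, with approximate standard errors (SE) and Benjamini-Hochberg adjustment over all genes tested.

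Between NT and NCT the question is how normal tissue of exposed, lesion-bearing mice differs from that of non-exposed mice. Most respiratory chain genes had lower values in NT, and none passed the test. The log2 fold changes of single members ran from -2.22 to 0.96. The median over the 91 tested members was -0.28, beside 0.01 over all 14447 genes tested, and 82 of the 91 lay below 0, beside 6899 of 14447 genes. No member passed an adjusted p of 0.05 with edgeR, where 0.0277% of all genes did (0.0208% lower and 0.00692% higher). At an unadjusted p under 0.05, 34 of the 91 members were lower and 0 higher, beside 5.98% and 5.6% of all genes. DESeq2's Wald test called 3 members lower, namely Cox8b, Ndufa2 and Ndufb3. Of all 14447 genes the same test called 100 lower and 34 higher. No member had groups that did not overlap, as 0.0346% of all genes did in the lower and 0.0208% in the higher direction.

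The lower values in NT ran through the complexes. All 9 genes of complex III were below 0 (median -0.35), as were 31 of 36 of complex I (median -0.28), all 3 tested genes of complex II (median -0.25), 16 of 17 of complex IV (median -0.32) and 16 of 17 of complex V (median -0.20). The 7 catalytic core subunits of complex I had a median of -0.20 and its 29 accessory subunits one of -0.28. The 8 assembly factors had a median of -0.18, and none of them was under an unadjusted p of 0.05.

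Ndufa2 had the smallest p in NT against NCT, followed by Cox8b, which is described with the isoforms. Ndufa2, an accessory subunit of the peripheral arm of complex I, had a lowest, median and highest library of 205, 269 and 325 CPM in NCT and of 172, 198.5 and 258.9 in NT. The NT libraries thus lay in the lower range of NCT and all 9 fell below its median, with a log2 fold change of -0.41 (SE 0.11, adjusted p = 0.141 by edgeR's quasi-likelihood test). Ndufb3, of the membrane arm, went from 120, 249.2 and 376 CPM in NCT to 61.8, 145 and 207 in NT (-0.85, SE 0.25, adjusted p = 0.213). Uqcr11, a small subunit of complex III, went from 146, 195 and 288 CPM to 106, 131 and 245 (-0.53, SE 0.16, adjusted p = 0.211). The highest NT library of both genes was NT replicate 1, the single NT library of the low series. Uqcrfs1, the Rieske iron-sulfur protein that hands electrons to cytochrome c1, had medians of 154 CPM in NCT and 93.3 in NT (-0.79, SE 0.29, adjusted p = 0.309). For the catalytic subunits of the ATP synthase, Atp5a1 had medians of 410 and 306 CPM (-0.41, adjusted p = 0.207) and Atp5b of 433 and 305 (-0.39, adjusted p = 0.285), each below the NCT median in 9 of 9 NT libraries. Sdha, the flavoprotein of complex II, had medians of 195 and 173 CPM (-0.24, adjusted p = 0.459), and Cycs had 203 and 193 (-0.34, adjusted p = 0.606).

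**Figure D2:**
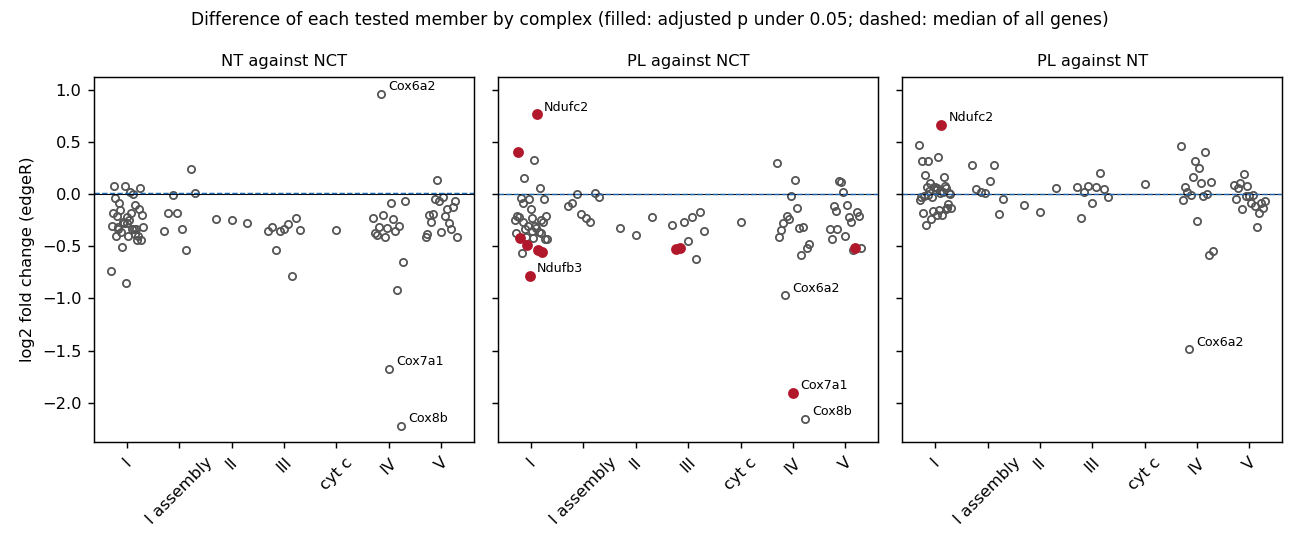
Log2 fold change from edgeR (vertical axis) of each of the 91 tested members in the 3 comparisons, by complex (horizontal axis). Filled points passed an adjusted p of 0.05 and dashed lines mark the median of all genes tested; members sit below 0 in 82 and 79 of 91 cases against NCT and in 43 of 91 in PL against NT.

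Markers of fat tissue moved with the same comparison. Brown adipocytes burn fat to heat and are rich in mitochondria, and the brown adipocyte list held Ucp1, Cidea, Cpt1b, Elovl3, Ppara and Otop1. Summed, it ranged from 98.9 to 1107 CPM for NCT, from 17.6 to 158 for NT and from 8.06 to 217 for PL. The defining marker Ucp1, the uncoupling protein, lay at 69.5 to 671 CPM in NCT and at 2.58 to 105 in NT, and Cpt1b was at 0 in every NCT and NT library. All 4 tested markers were lower in NT at an unadjusted p under 0.05 (median -2.78) and none passed after adjustment. White adipocyte markers summed to 976 to 7886 CPM for NCT, 498 to 1888 for NT and 141 to 2225 for PL, with all 11 tested markers below 0 in NT against NCT (median -1.25). The NCT libraries highest in brown adipocyte markers were replicate 9 (1107 CPM) and replicate 6 (750 CPM), which were also among the 3 highest in the sum over the respiratory chain (25260 and 21280 CPM). Without them the median of the members in NT against NCT was -0.17 with 74 of 91 below 0, and with an adipocyte score as a covariate it was -0.15 with 63 below 0. With the mouse number series as a covariate it was -0.18 with 78 below 0. Within the high series alone, 4 libraries against 4, it was -0.28. The NCT libraries of that series were replicates 6, 7, 8 and 9, and so included both libraries highest in brown adipocyte markers. Replicates 7 and 8 had sums over the respiratory chain of 14170 and 13900 CPM, where the NT median was 14840. The members lower at an unadjusted p under 0.05, 34 as reported, were 13 without the 2 replicates, 8 with the adipocyte score, 11 with the series as a covariate and 5 within the high series. The share of all genes at that p was not computed for these settings. The part of the fat markers in the result was not tested further.

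**Figure D3:**
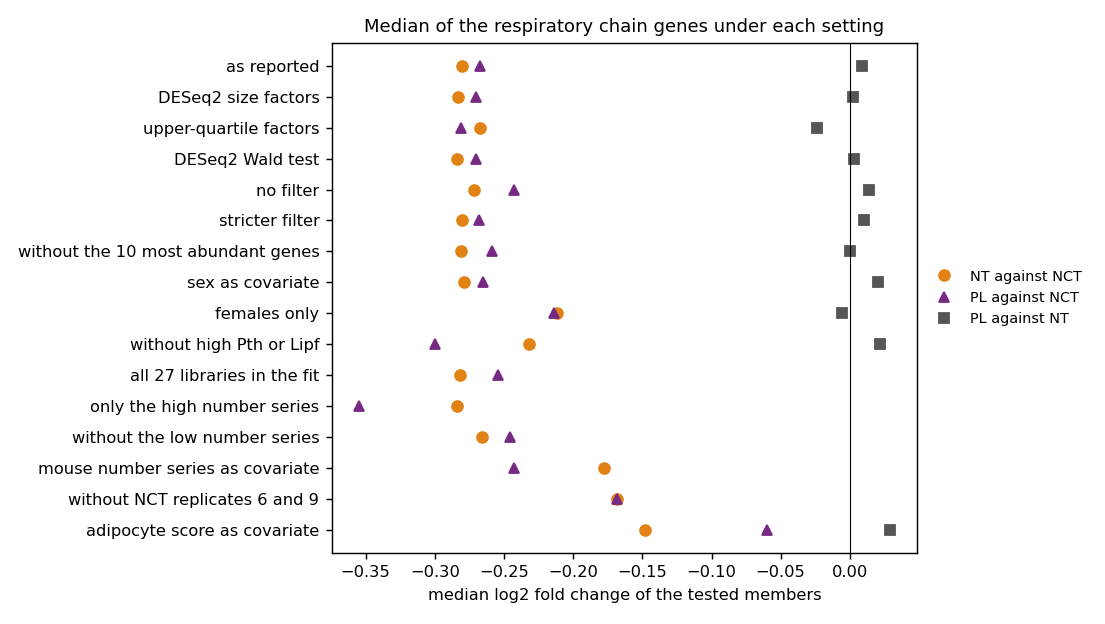
Median log2 fold change of the tested members (horizontal axis) in each comparison under each way of fitting (vertical axis). Against NCT the median stays below 0 throughout and comes nearest to 0 with an adipocyte score as a covariate (-0.15 for NT, -0.06 for PL), and PL against NT lies between -0.02 and 0.03 under the settings shown, which leave out no single mouse.

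Most members also had lower values in lesions than in non-exposed thyroid. PL and NT are compared with the same NCT libraries, so that the pair of comparisons is not independent. The median of the 91 members in PL against NCT was -0.27, beside 0.00 over all 14234 genes tested, and 79 members lay below 0. At an adjusted p under 0.05, 9 members fell and 2 rose, which is 9.89% and 2.2% of the 91. Of all genes 10.1% were called, 4.62% lower and 5.45% higher, so that the members' share was above the background in the lower direction and below it in the higher. At an unadjusted p under 0.05, 32 members were lower and 3 higher (35.2% and 3.3%), where 11.2% and 12.3% of all genes were. No member had groups that did not overlap, as 0.457% of all genes did in the lower and 0.555% in the higher direction.

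Markers of several other cell types moved with this comparison. Of the C cell markers, which mark the calcitonin-producing cells of the thyroid, 5 of 7 fell in PL against NCT and 1 rose (median -4.77). Calca, the calcitonin gene, lay at 655.6 to 6344 CPM in NCT, 308.4 to 5262 in NT and 20.93 to 323.6 in PL. The whole C cell list summed to 1323 to 8463 CPM in NCT, to 439.5 to 16760 in NT and to 79.53 to 413.1 in 8 PL libraries, with PL replicate 2, one of the libraries high in Pth or Lipf, at 18270. All 5 tested airway epithelium markers fell in PL (median -4.10), and the list summed to 346.7 to 5209 CPM in NCT, 114.7 to 6356 in NT and 26.61 to 446.3 in PL. Of the 6 fibroblast markers 3 fell in PL (Pdgfra, Dcn and Lum), and the list summed to 1738 to 2844 CPM in NCT and 551.7 to 3046 in PL. Of the 4 tested brown adipocyte markers 2 fell (Otop1 and Ppara), as did 1 of 11 white ones (Slc2a4). Of 10 thyroid follicular cell markers 9 lay above 0 in PL against NCT (median 0.439), with 2 called higher and 1 called lower. In NT against NCT no marker of these lists passed, 4 of 6 C cell markers were lower and 3 of 7 macrophage markers higher at an unadjusted p under 0.05, and macrophage markers summed to 303.8 to 610.7 CPM in NCT and 295.3 to 1422 in NT. The part of these cell types in the values of the respiratory chain was not tested.

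Ndufs6 had the smallest p. It encodes a zinc-binding accessory subunit of the peripheral arm of complex I and lies at chr13:73319838-73328542 on the minus strand (GRCm38). Its lowest, median and highest libraries were 94.0, 147 and 183 CPM for NCT, 82.3, 95.8 and 144 for NT, and 71.4, 95.9 and 132 for PL. All 9 PL libraries lay below the NCT median, and the groups overlapped through NCT replicates 1, 7 and 8. Ndufs6 fell by 0.56 on the log2 scale (SE 0.14, adjusted p = 0.0106 by edgeR's quasi-likelihood test), and the call stood in all 18 fits that left out 1 library. The gene overlaps Mrpl36 on the opposite strand, which had 8989 counts over all libraries beside 21140 for Ndufs6, and whether the counting used strand is not given in the sources used here.

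Other complex I genes that fell in PL against NCT were Ndufa2, Ndufb10, Ndufs1 and Ndufb3. Ndufa2 had libraries of 154, 193 and 280 CPM in PL (-0.42, SE 0.12, adjusted p = 0.0305). Ndufb10, of the membrane arm, went from 74.2, 93.4 and 136 CPM in NCT to 44.1, 66.1 and 88.1 in PL (-0.49, SE 0.15, adjusted p = 0.0329). Ndufb3 had 55.1, 157 and 185 CPM in PL (-0.78, SE 0.25, adjusted p = 0.0487), with its lowest value in PL replicate 5. Ndufs1, the largest core subunit and a carrier of iron-sulfur clusters, went from a median of 71.2 CPM in NCT to 50.7 in PL (-0.54, SE 0.17, adjusted p = 0.0428). Ndufs1 overlaps Eef1b2 on the opposite strand, which had 75780 counts beside 11575, and its values are uncertain for that reason.

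In complex III the small subunits Uqcr10 and Uqcr11 fell. Uqcr10 had libraries of 158, 203 and 272 CPM for NCT, 118, 165 and 211 for NT, and 93.4, 148 and 211 for PL (-0.53, SE 0.15, adjusted p = 0.0238 for PL against NCT). Uqcr11 had 102, 136 and 218 CPM in PL (-0.52, SE 0.16, adjusted p = 0.0452). In complex V, Atp5l, the membrane subunit g that takes part in holding ATP synthase dimers together, had 320, 496 and 537 CPM for NCT, 297, 338 and 499 for NT, and 223, 310 and 431 for PL. All 9 PL libraries lay below the NCT median of Atp5l (-0.52, SE 0.15, adjusted p = 0.0233). Atp5b, the catalytic beta subunit, had medians of 433 and 314 CPM in NCT and PL and did not pass (-0.43, adjusted p = 0.0707). In complex II neither Sdha (-0.33, adjusted p = 0.151) nor Sdhb (-0.39, adjusted p = 0.235) passed.

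Ndufc2 and Ndufa12 were the 2 members that rose in PL against NCT, both accessory subunits of complex I. Ndufc2, of the membrane arm, rose by 0.77 (SE 0.22, adjusted p = 0.0297), with 8 of 9 PL libraries above the NCT median. Ndufa12, which sits in the peripheral arm where the assembly factor Ndufaf2 is bound before it, had libraries of 194, 242 and 262 CPM for NCT, 208, 257 and 295 for NT, and 226, 307 and 401 for PL. It rose by 0.41 (SE 0.12, adjusted p = 0.0286), with 8 of 9 PL libraries above the NCT median.

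Of the 11 calls 10 were lost in at least 1 fit that left out a library, while the fold changes kept their direction. Over the 18 fits that left out 1 library, between 3 and 14 members were called, with 3 both without NCT replicate 2 and without NCT replicate 9. Over all genes these fits called 1126 to 1655, with 1126 of 14448 without NCT replicate 2 and 1219 of 14459 without NCT replicate 9. Atp5l was lost without NCT replicate 2 or 9 (-0.58 to -0.46 over the fits, highest adjusted p = 0.0514 by edgeR), Uqcr10 without NCT replicate 6 or 9 (-0.61 to -0.46, highest adjusted p = 0.0566), Ndufa12 without PL replicate 3 or 8 (0.36 to 0.47, highest adjusted p = 0.0543), and Ndufc2 without PL replicate 3 or 8 or NCT replicate 2, 5 or 8 (0.62 to 0.87, highest adjusted p = 0.0555). Ndufb10 stood in 10 of the 18 fits, Cox7a1, Ndufa2 and Ndufs1 in 9 each, Uqcr11 in 6 and Ndufb3 in 4. Without NCT replicates 6 and 9 together, Ndufa12, Ndufc2 and Ndufs6 were called and the median was -0.17. Of all 14662 genes 937 were called in that fit. With the adipocyte score as a covariate 0 members were called by edgeR, also 0 at an unadjusted p under 0.05 in the lower direction, and the median was -0.06. Calls over all genes dropped with the score as well, from 1433 to 81 of 14234, so that the loss of calls was not particular to the members. The share of all genes at an unadjusted p under 0.05 was not computed for this fit.

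Between lesions and the normal tissue of the same mice, the members as a group lay close to 0. In PL against NT, fitted with the mouse as a block, the median of the members was 0.01, beside 0.00 over all genes, with 43 of 91 below 0. A single member, Ndufc2, was called, and it rose. Of all 14461 genes, 3.08% were called, 1.76% higher and 1.31% lower. At an unadjusted p under 0.05, 7 members were higher and 3 lower, beside 8.89% and 8.76% of all genes. No member had groups that did not overlap, as 0.0692% of all genes did in the higher and 0.0484% in the lower direction. By complex the medians ran from -0.10 for complex II to 0.05 for complex III. The sum over all members was higher in PL in 6 of 9 mice, and the log2 ratio of PL to NT in a mouse ran from -0.21 in mouse 7 to 0.32 in mouse 2. Mice are numbered here by the replicate number of their pair. Markers of cell types also differed between PL and NT. Of 7 C cell markers 5 fell (median -3.365), as did 5 of 7 airway epithelium markers (median -3.338). All 6 fibroblast and all 5 endothelial markers lay below 0, and none of them passed. Of 10 thyroid follicular cell markers 9 lay above 0 and 1 was called (median 0.415). The part of these cell types in the values of the members was not tested.

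Ndufc2 lies at chr7:97400003-97407802 on the plus strand (GRCm38). Its libraries were 140, 197 and 239 CPM in NCT and 144, 176 and 310 in NT (lowest, median and highest). In PL they were 152, 324 and 591 CPM, and PL replicates 3 and 8, at 581 and 591 CPM, stood above all others. Ndufc2 was higher in the lesion in 9 of 9 mice (0.67, SE 0.16, adjusted p = 0.0419 by edgeR's quasi-likelihood test). The rise was small in mouse 9, from 143.6 to 151.5 CPM, and large in mouse 3, from 176 to 581 CPM. The call stood in 2 of 9 fits that left out a mouse, those without mouse 1 or mouse 9, and was lost without any of mice 2 to 8. Without the mouse block the adjusted p was also above 0.05 and 0 members were called.

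The next members by p in this comparison lay in complex IV. Cox4i1, the common isoform of the largest nuclear subunit of complex IV, had libraries of 125, 187 and 217 CPM in NT and 147, 251 and 444 in PL, and was higher in PL in 8 of 9 mice without passing (0.46, SE 0.13, adjusted p = 0.0601). DESeq2's Wald test called it, as did the fit without mouse 7. Cox4i1 overlaps Emc8 on the opposite strand, which had 5240 counts beside 40360. Cox6c was higher in PL in 8 of 9 mice (0.32, SE 0.10, adjusted p = 0.0817), from a median of 838 CPM in NT to 1108 in PL, and its level in PL was about that of NCT. In complex I, Ndufa8 was at 0.32 (adjusted p = 0.156). On the lower side Atp5k, the subunit e of the ATP synthase, was at -0.31 (adjusted p = 0.184) and Uqcr10 at -0.23, lower in 8 of 9 mice (adjusted p = 0.21).

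**Figure D4:**
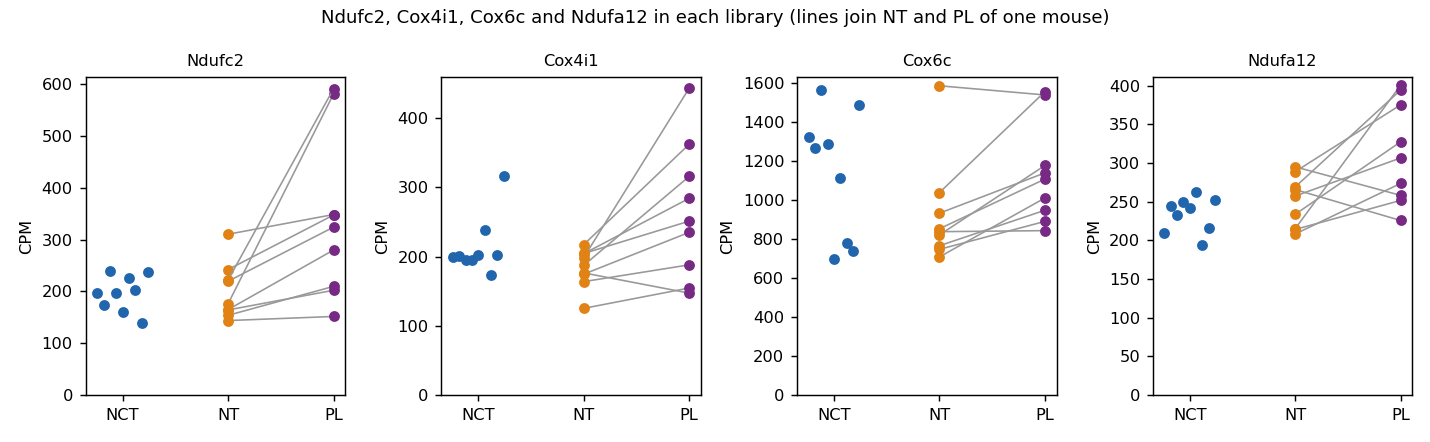
CPM (vertical axes, linear from 0) of Ndufc2, Cox4i1, Cox6c and Ndufa12 in each library, with lines joining NT and PL of the same mouse. Ndufc2 is higher in PL in 9 of 9 mice, and Cox4i1 and Cox6c in 8 of 9; Cox6c in PL lies within the range of NCT.

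Several subunits of complex IV exist as isoforms that are used in different tissues, and those of muscle and brown fat showed the widest differences among the members. Cox8b, the isoform of heart, skeletal muscle and brown fat, lies at chr7:140898945-140900446 on the minus strand. Its lowest, median and highest libraries were 27.6, 39.0 and 315 CPM for NCT, 4.54, 16.7 and 53.2 for NT, and 0.598, 7.71 and 69.1 for PL. The 2 highest were NCT replicates 9 (315 CPM) and 6 (186 CPM), the libraries with the most brown adipocyte transcripts. Skeletal muscle markers summed to 742.7 CPM in NCT replicate 6, the highest of NCT, and to 159.6 in NCT replicate 9. In NT replicates 4 and 8 they summed to 2510 and 2508 CPM, and Cox8b stood at 53.24 and 29.15 CPM there. The part of muscle in these values was not tested. The fold changes of Cox8b were large but did not pass over all genes, at -2.22 in NT against NCT (SE 0.60, adjusted p = 0.192) and -2.16 in PL against NCT (SE 0.80, adjusted p = 0.101).

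Cox7a1, the muscle and brown fat isoform of subunit 7a, lies at chr7:30184144-30186078 on the plus strand. Its libraries were 23.99, 38.57 and 268 CPM for NCT, 9.02, 25.96 and 70.2 for NT, and 6.79, 18.03 and 54.7 for PL. NCT replicates 9 (268 CPM) and 6 (174 CPM) again stood above all others, and the groups overlapped. In NT replicates 4 and 8, the libraries high in skeletal muscle markers, Cox7a1 stood at 70.17 and 26.37 CPM. Cox7a1 fell by 1.90 on the log2 scale in PL against NCT (SE 0.54, adjusted p = 0.0317), and stood at -1.67 in NT against NCT (SE 0.53, adjusted p = 0.254). Without NCT replicates 6 and 9 the call in PL was lost. With the adipocyte score as a covariate Cox8b changed sign in both comparisons, to 0.11 and 0.38, as did Cox7a1 in NT against NCT, to 0.23.

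The widely used partners of these isoforms differed far less. Cox8a had means of 642 ± 99.6 CPM for NCT, 525 ± 103 for NT and 522 ± 93.5 for PL, and Cox7a2 had 362 ± 82.7, 345 ± 136 and 401 ± 124 (SD, n = 9). The log2 ratio of Cox8b to Cox8a, with 0.5 CPM added to both, was lower than in NCT by 1.76 in NT (exact permutation test, p = 0.0093, adjusted p = 0.0465 over 15 ratio tests) and by 2.39 in PL (exact permutation test, p = 0.00889, adjusted p = 0.0465). The ratio of Cox7a1 to Cox7a2 differed by -1.82 in PL against NCT (exact permutation test, p = 0.00477, adjusted p = 0.0465) and by -1.34 in NT against NCT (exact permutation test, p = 0.0237, adjusted p = 0.089). Of the 9 libraries 8 of NT lay below the NCT median for both ratios. In PL 7 lay below it for Cox8b and 8 for Cox7a1. These 3 calls lay just inside the threshold and had adjusted p = 0.0502 with 2 CPM added (exact permutation test). Without NCT replicates 6 and 9 the differences were -1.30, -1.93 and -1.36, with adjusted p = 0.198 by the exact permutation test.

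**Figure D5:**
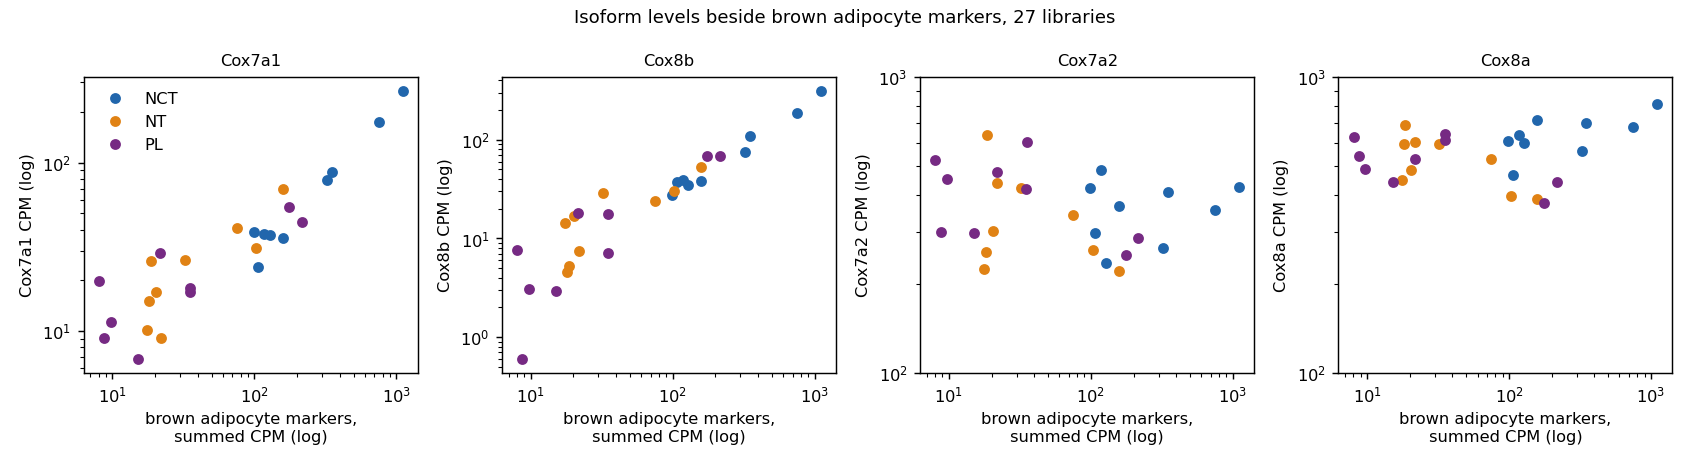
CPM of Cox7a1, Cox8b, Cox7a2 and Cox8a (vertical axes, log scale) against the summed CPM of 6 brown adipocyte markers (horizontal axes, log scale) in the 27 libraries, coloured by group. Cox7a1 and Cox8b are highest in the 2 NCT libraries richest in brown adipocyte markers, at 268 and 315 CPM in NCT replicate 9, while Cox7a2 and Cox8a stay between 220.6 and 813 CPM.

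None of the other ratios tested, Cox6a2 to Cox6a1, Cox4i2 to Cox4i1 and Ndufa4l2 to Ndufa4, differed past the threshold. Cox6a2, the heart and skeletal muscle isoform of subunit 6a, had medians of 7.71, 6.61 and 2.84 CPM in NCT, NT and PL. It stood highest in NT replicates 4 (76.8 CPM) and 8 (65.9 CPM), which were also the 2 libraries with the highest sums of skeletal muscle markers, at 2510 and 2508 CPM where the other 7 NT libraries had at most 45.6. Its common partner Cox6a1 had means of 415, 337 and 347 CPM. Cox4i2, the lung isoform of subunit 4, stayed at or under 3.215 CPM in all libraries beside 125 to 444 CPM for Cox4i1. Cox6b2, known from testis, had means of 8.02, 6.14 and 6.91 CPM beside 337, 296 and 294 for Cox6b1, and their ratio was not tested. Ndufa4l2, a hypoxia-induced relative of the complex IV subunit Ndufa4, had means of 3.34, 3.26 and 2.44 CPM beside 135, 87.0 and 94.9. Cox7a2l, which helps to join complexes III and IV into supercomplexes, had means of 221, 189 and 204 CPM.

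Upstream sequences are shown for 4 genes that fell or whose ratio fell against NCT: Ndufs6 and Atp5l, which are used in all tissues, and the tissue-bound isoform genes Cox7a1 and Cox8b. They are the 250 bases before the annotated start in RefSeq (GRCm38.p6), 5′ to 3′ on the strand of the gene, and were chosen after their motif matches had been seen. Capitals mark matches, on either strand, to the NRF1 motif (GCGCA, any base, GCGC), the ETS motif CCGGAAG, the estrogen-related receptor (ERR) motif AAGGTCA or the TATA box letters TATAAA. NRF1, ETS factors and ERR are known regulators of respiratory chain genes.
Ndufs6, chr13:73328483-73328732, minus strand: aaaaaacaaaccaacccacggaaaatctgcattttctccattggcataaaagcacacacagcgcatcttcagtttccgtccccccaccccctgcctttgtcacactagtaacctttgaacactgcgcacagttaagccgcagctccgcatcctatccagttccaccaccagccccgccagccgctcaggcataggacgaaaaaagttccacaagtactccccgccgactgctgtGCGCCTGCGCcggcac
Atp5l, chr9:44920743-44920992, minus strand: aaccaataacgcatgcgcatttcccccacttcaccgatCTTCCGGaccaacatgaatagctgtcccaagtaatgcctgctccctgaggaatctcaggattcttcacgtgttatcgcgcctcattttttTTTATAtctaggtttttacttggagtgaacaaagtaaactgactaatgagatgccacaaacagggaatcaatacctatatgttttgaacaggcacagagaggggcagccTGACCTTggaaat
Cox7a1, chr7:30183921-30184170, plus strand: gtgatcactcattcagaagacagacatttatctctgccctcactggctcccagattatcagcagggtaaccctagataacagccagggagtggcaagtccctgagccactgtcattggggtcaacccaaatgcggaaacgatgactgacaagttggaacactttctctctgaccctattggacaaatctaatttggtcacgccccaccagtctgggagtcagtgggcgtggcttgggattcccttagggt
Cox8b, chr7:140900447-140900696, minus strand: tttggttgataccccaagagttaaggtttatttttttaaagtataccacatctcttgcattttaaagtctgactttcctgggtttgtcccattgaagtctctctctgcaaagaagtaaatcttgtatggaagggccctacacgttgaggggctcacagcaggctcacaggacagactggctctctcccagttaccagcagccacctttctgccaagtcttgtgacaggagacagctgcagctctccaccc

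Ndufs6 held an NRF1 match near its RefSeq start, and Atp5l held an ETS, a TATA and an ERR match in this order. The windows of Cox7a1 and Cox8b held none of the 4 motifs, nor did those of their widely used partners Cox7a2 and Cox8a. The genes shown were chosen with their matches known, so that their contrast describes these 4 only. By the gene coordinates given above, Ndufs6 reaches to 73328542 and Cox7a1 starts at 30184144. The last bases of both windows thus lie within the genes, for Ndufs6 with the NRF1 match. The window of Ndufs6 had 14 CG pairs, that of Atp5l 7, that of Cox7a1 4 and that of Cox8b 1. Of the 95 member symbols 75 had a window in the table. Among these, 17.3% held an NRF1 match and 17.3% an ETS match, beside 3.86% and 7.05% of the 27025 windows of all genes. ERR letters were in 6.67% of member windows and 4.05% of all, and TATAAA in 8% and 13%. The member windows were richer in G and C, with a median of 57.2% beside 52% for all. A match describes the letters and is not a binding site, and factor binding was not measured here.

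The genes of the mitochondrial genome and of the tricarboxylic acid cycle lay mostly below 0 against NCT. All 13 protein-coding genes of the mitochondrial genome lay below 0 in NT against NCT (median -0.53) and in PL against NCT (median -0.55). Of these 6 fell in PL against NCT: mt-Nd2, mt-Nd4, mt-Nd4l and mt-Nd5 of complex I, mt-Cytb of complex III and mt-Atp8 of complex V, with log2 fold changes of -0.55 to -0.81. In NT against NCT none passed, the smallest p being that of mt-Nd6 (adjusted p = 0.0905), and in PL against NT the median was 0.00. Reads of these genes can be shared with nuclear copies. The tricarboxylic acid cycle, which supplies NADH and succinate, had medians of -0.45 and -0.48 against NCT over 13 tested genes. In PL against NCT 2 of them fell, Idh3g of the NAD-linked isocitrate dehydrogenase (-0.64, adjusted p = 0.0178) and Sucla2 of succinate-CoA ligase (-0.81, adjusted p = 0.021). Of all genes 4.62% were called lower there. NCT replicates 9 and 6 had the highest sums of both lists. The mitochondrial genome summed to 152700 and 137300 CPM in them, and to at most 94440 in the other NCT libraries. The tricarboxylic acid cycle summed to 2789 and 2291 CPM in them, and to at most 1659 in the other NCT libraries. The part of these 2 libraries in the calls was not tested.

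Few genes of assembly and regulation passed the test. Of 9 tested assembly factors of complex I outside the Ndufaf genes, Tmem126b, a membrane-arm assembly factor, fell in PL against NCT (-0.53, SE 0.15, adjusted p = 0.0275), from 33.6 ± 3.93 CPM in NCT to 30.4 ± 3.45 in NT and 23.6 ± 6.04 in PL (SD, n = 9). None of the 4 tested assembly factors of complex II, 6 of complex III, 21 of complex IV or 3 assembly and inhibitor genes of the ATP synthase passed in any comparison. The smallest p among them in PL against NCT were those of Bcs1l of complex III (-0.55, adjusted p = 0.0714), Sco1, a copper carrier for complex IV (-0.50, adjusted p = 0.0748), and Sdhaf4 of complex II (0.41, adjusted p = 0.0748). Of 12 tested regulators of mitochondrial biogenesis none passed. Ppargc1a, the coactivator PGC-1alpha, had means of 75.4 ± 16.5 CPM for NCT, 60.0 ± 15.2 for NT and 58.7 ± 15.8 for PL (SD, n = 9; -0.38, adjusted p = 0.116 in PL against NCT).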

How the data were processed

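The deposited table gives raw counts of reads for each gene, unnormalized by the authors as far as the values show, since they are whole numbers and library totals vary. Libraries were made with a QuantSeq 3′ kit from laser-captured tissue, per the labels' protocols. The submitters' processing notes name STAR, featureCounts, DESeq2 and GRCm38, with neither version nor role. The gene annotation and the strand setting of the authors' counting are not given in the sources used.

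Groups, mouse pairs and sex came from the labels. Symbols and coordinates came from GENCODE M21 (GRCm38, counted from 1), which matched 54409 of 54532 identifiers. The other 123 held 0.0251% of counts and stayed out. Of the members, 41 overlap another annotated gene, which held at least 10% of the member's own counts in 12 cases. CPM were scaled with TMM factors over all 27 libraries, of 2923851 to 14148601 counts.

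Each comparison was fitted on the whole table with edgeR 4.0.16 in R 4.3.3 (quasi-likelihood F test, TMM, filterByExpr with a minimum count of 10, robust dispersion, Benjamini-Hochberg adjustment at 0.05) on the libraries of its 2 groups, with the mouse as a block for PL against NT. The pairing comes from the mouse numbers. The correlation of deviations within pairs was -0.0162 to 0.212, above 0.1 in 5 of 9. An approximate SE was computed from the fold change and its F statistic. Isoform ratios (5 pairs, 3 comparisons) were log2 ratios of CPM with 0.5 added, tested with exact two-sided permutation tests, for PL against NT by sign flips within mice. Counts above or below for NT and PL against NCT are relative to the NCT median. The number of libraries limits precision, and p-values measure the spread between mice. The scripts were tested on simulated data.

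Alternatives were DESeq2 1.42.0, other scaling and filters, sex, the mouse number series or an adipocyte marker score as covariates, and leaving out libraries. The members and lists were chosen with earlier results of these data known. Named are every member past the threshold, the 2 of smallest p of each complex, the most abundant of each complex, the isoform groups and a fixed set of catalytic subunits. Of other lists, every gene past the threshold or else the gene of smallest p is named, as far as the text turns on it.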

Additional observations from a re-analysis of the deposited data

Results flagged for a closer look

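In 4 of 138 groups of 9 libraries checked, a single library stood far from the rest of its group; chance alone flags about 1 in 20. Cox4i1, the common isoform of complex IV subunit 4, was at 317.1 CPM in NCT replicate 9, where the next NCT library had 238.9. Cox6c, also of complex IV, was at 1587 CPM in NT replicate 1, the NT library of the low mouse number series, where the next had 1039. Ndufaf6, an assembly factor of complex I, was at 13.46 CPM in NCT replicate 3, where the next had 6.652. Ndufaf7, the methyltransferase that acts on complex I during assembly, was at 18.17 CPM in PL replicate 8, where the next had 13.65.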

How the results depend on the processing

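The median of the members stayed below 0 in NT and PL against NCT under every setting run, but moved from -0.280 to between -0.284 and -0.148 and from -0.267 to between -0.355 and -0.060, nearest to 0 with the adipocyte score; leaving out 1 library gave -0.331 to -0.194 and -0.314 to -0.221. In PL against NT it ran from -0.038 to 0.053 when a mouse was left out. Counts of calls were less steady, and the causes were not tested. The fits with the mouse number series as a covariate, without its low series and without NCT replicates 6 and 9 were chosen after seeing the data, as were the isoform tests in the high series only.

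Members called in PL against NCT (11) became 15 with DESeq2 and 14 with all 27 libraries in the fit (all genes 1867 and 1817), 7 without a filter or with sex as a covariate, 3 without the libraries high in Pth or Lipf or without NCT replicates 6 and 9, 2 with the mouse number series as a covariate, and 0 with the adipocyte score, females only, only the high series or without the low series; leaving out 1 library gave 3 to 14. The count over all genes (1433) became 81 with the adipocyte score, 450 with females only and 797 without high Pth or Lipf. It was 264 in the high series only, 423 without the low series and 937 without NCT replicates 6 and 9. Without a filter it was 1634, with sex as a covariate 1375 and with the series as a covariate 1126. Leaving out 1 library gave 1126 to 1655. With the series, 2 members were called lower and 0 higher, beside 535 and 591 of all 14234 genes. In PL against NT the 1 member became 3 with DESeq2, 2 without a filter, and 0 with sex in place of the mouse, the adipocyte score, females only or without high Pth or Lipf; without the replicate block it was also 0, and leaving out a mouse gave 0 to 1. All genes (445) became 1285 with DESeq2, 832 without a filter, 127 with the adipocyte score, 6 with females only, 95 without high Pth or Lipf and 137 to 529 without 1 mouse; the block changed the call of no other named member. In NT against NCT DESeq2 called 3 members, and all genes (4) became 134 with DESeq2, 15 without a filter, 0 with the adipocyte score or the high series only, 1 with females only or without high Pth or Lipf, 7 with the series as a covariate, 2 without the low series and 0 to 12 without 1 library.

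These named members changed sign. In NT against NCT the adipocyte score gave Cox8b 0.113, Cox7a1 0.231, Sdha 0.089, Sdhb 0.314 and Cycs 0.045, females only gave Sdhb 0.022, and the fit without NCT replicates 6 and 9 gave Sdhb 0.046 and Cycs 0.010. In PL against NCT the adipocyte score gave Cox8b 0.382, Sdhb 0.218 and Cycs 0.397, females only gave Cycs 0.107, the high series gave Ndufaf5 0.062, and without NCT replicates 6 and 9 Ndufaf4 was 0.014 and Cycs 0.101.

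The isoform ratio differences that passed (Cox7a1/Cox7a2 in PL, Cox8b/Cox8a in NT and in PL against NCT) were no longer past the threshold with 2 CPM added (-1.739, -1.640 and -2.096), without high Pth or Lipf (-1.391, -1.281 and -2.077), without NCT replicates 6 and 9 (-1.356, -1.298 and -1.929) and in the high series only (-2.773, -2.845 and -4.015), where the smallest p that 4 against 4 allows is 0.0286 by the exact permutation test (adjusted p = 0.107 over the ratios). Leaving out 1 library gave -2.089 to -1.596, -2.033 to -1.525 and -2.792 to -1.981, with the call kept in 18, 6 and 5 of 18 fits; the other ratios' p-values were held as reported. Cox7a1/Cox7a2 in NT against NCT ran from -1.610 to -1.110 and passed without NT replicate 4. Ratios that changed sign were Cox4i2/Cox4i1 (NT against NCT 0.049 with 2 CPM added and -0.293 to 0.176 without 1 library, PL against NCT -0.377 to 0.124, PL against NT -0.322 to 0.202), Cox6a2/Cox6a1 (NT against NCT -0.027 without NCT replicates 6 and 9 and -0.009 to 0.877 without 1 library, PL against NCT 0.155 in the high series), Cox8b/Cox8a in PL against NT (0.069 without high Pth or Lipf) and Ndufa4l2/Ndufa4 in PL against NCT (-0.304 without NCT replicates 6 and 9, -0.207 in the high series, -0.209 to 0.483 without 1 library).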

Other observations

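A set of 6 members shared their lowest libraries in each group, noticed after the values were seen. They were Cox7c of complex IV, Ndufa1 and Ndufb3 of complex I, Sdhc of complex II, Uqcrfs1 of complex III and Atp5j of complex V. Cox7c, a small subunit, had libraries of 254, 923 and 1676 CPM in NCT, 121, 486 and 923 in NT, and 144, 611 and 981 in PL (lowest, median and highest). All 6 genes were lowest in NCT replicates 5, 7 and 8, in NT replicates 2 and 6 and in PL replicates 5 and 9. The set was formed by matching the lowest libraries of Cox7c, so that this agreement follows from the choice. How many of all genes share these lowest libraries was not counted. In NT replicates 2 and 6 Cox7c stood at 135 and 121 CPM, Ndufa1 at 108 and 116 CPM and Sdhc at 69.6 and 63 CPM, whereas the sums over all members there, 14840 and 14900 CPM, were close to the NT median. What the low libraries share was not tested.

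Other members were steady within single groups. Over the 84 members with a mean of at least 20 CPM, the median coefficient of variation was 21.8% in NCT, 18.2% in NT and 21.5% in PL. Ndufa7 and Ndufa12, accessory subunits of complex I, had 9.5% and 9.67% in NCT, and 20.9% and 21% in PL. Sdha had 7.51% in NT and 24.7% in NCT. Cyc1 and Atp5o (ENSMUSG00000022956) had 10.7% each in PL, and 43.1% and 24.5% in NCT. The widest were Cox8b in NCT (101%) and PL (127%) and Cox7a1 in NCT (94.9%).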
